A study of Mus musculus with 11 samples.

Results

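The genes of respiratory complex I were followed in the ventricles of dilated, hypertrophic and transgene-negative mouse hearts. They were taken as all genes whose symbol in the platform annotation starts with Nduf. This rule found 27 genes on 31 spots, among 8106 named genes tested, and all 27 had a value on enough arrays to be tested. They comprised 6 core subunits (Ndufs1, Ndufs3, Ndufs7, Ndufs8, Ndufv1 and Ndufv2), 16 accessory subunits, 4 assembly factors (Ndufaf1, Ndufaf3, Ndufaf4 and Ndufaf6) and 1 pseudogene (Ndufs5-ps). The rule reads the symbol alone. The genes lay on 14 chromosomes, with 4 on chromosome 17 as the highest number on any of them.

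The study used male TG1306/1R mice on the C57/BL6 background at about 60 weeks of age, with 4 mice in each of 3 groups. The Dil mice were heterozygous for the transgene and had a dilated heart, the Hyp mice were heterozygous and had concentric hypertrophy, and the WT mice were littermates that lacked the transgene. The line overexpresses angiotensinogen, the precursor of angiotensin II, in the heart. Both carrier groups were picked from carriers of 1 genotype by chamber shape, cardiac weight index and hypertrophic marker expression, so the groups describe selected hearts and not all carriers. RNA came from the right and left ventricles with the septum. It was hybridised to 2-colour cDNA arrays, each of which compared 2 mice with the same number, called a set here. Of the 11 arrays, 3 compared Dil with WT, 4 compared Dil with Hyp and 4 compared Hyp with WT, and the array of Dil2 and WT2 was not analysed here.

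Each value is a log2 ratio of 2 mice, with 17207 values per array. Ratios hold no level, so the labelled tissue could not be checked by the level of its marker genes, and no gene can be ranked above another by abundance. Ratios were read as Cy5 relative to Cy3, which no source used here states, so their direction is likely only. In that direction Nppb, the B-type natriuretic peptide gene, was higher in Dil than in WT hearts by 2.53 ± 0.32 (SE) and Agt, the angiotensinogen gene, by 2.15 ± 0.40, and the opposite direction would turn every sign below. The deposited column of Hyp1 and WT1 was out of order against the other arrays and was realigned, which left 8 of the 27 genes without a value on that array. In whole ventricles, fewer cells of a type and less RNA per cell cannot be told apart.

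Complex I, or NADH:ubiquinone oxidoreductase, is the entry point for electrons from NADH into the mitochondrial respiratory chain, and it pumps protons across the inner membrane as electrons pass to ubiquinone. Its core subunits carry the catalytic machinery, and the nuclear-encoded ones sit in the arm that projects into the matrix, while the core of the membrane arm is encoded by mitochondrial DNA. Accessory subunits surround this core, and many of them are needed for its assembly or stability. Assembly factors help to build the complex and are not part of the finished enzyme. Heart muscle depends heavily on oxidative phosphorylation and is rich in this complex.

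Dil and WT hearts were compared to ask which genes accompany dilatation. Of the 27 complex I genes 7 fell in Dil against WT hearts and 0 rose. All 7 were accessory subunits, and the other 9 accessory subunits did not pass the test. They were Ndufa13, Ndufb11, Ndufv3, Ndufb10, Ndufa12, Ndufs4 and Ndufb7, and their changes ran from -0.57 to -0.35 on the log2 scale, or 1.49-fold to 1.27-fold lower. Over all 12097 features (genes and unnamed spots) 2.15% passed the test in either direction and 1.15% passed as lower. The fitted change was below 0 for 26 of the 27 genes, against 48.9% of all features. The median change was -0.34 over the 27 genes and 0.0029 over all features.

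These changes come from a fit over all 11 arrays with terms for group, dye and mouse, moderated with limma. P-values were adjusted across the whole table (Benjamini-Hochberg), and a gene passed the test at an adjusted p under 0.05. When the contrast was instead estimated within each set and tested over the 4 sets as a replicate block, 0 of the 27 genes passed in limma (smallest adjusted p = 0.0592), with 22 at an unadjusted p under 0.05. The count was 3 with set 1 left out, 0 with set 2, 3 or 4 left out, 3 with the array of Hyp1 and WT1 left out, and 0 from the 3 direct arrays alone, with 18 genes there at an unadjusted p under 0.05.

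**Figure D1:**
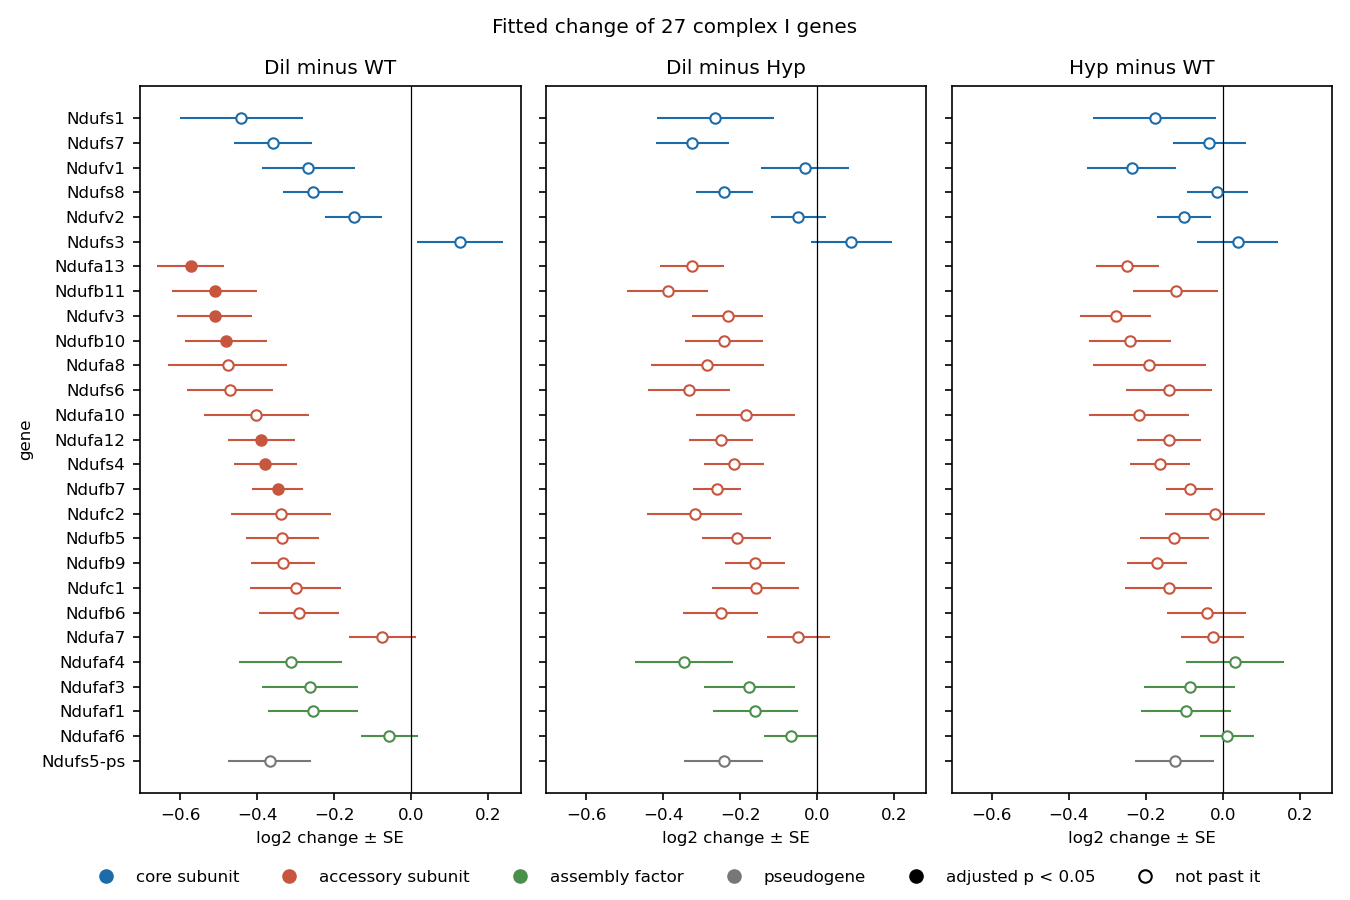
Fitted log2 change of each of the 27 complex I genes with its standard error (horizontal bars), in Dil minus WT, Dil minus Hyp and Hyp minus WT hearts, with 4 mice per group. Filled points mark an adjusted p under 0.05: the 7 filled points are all accessory subunits in Dil minus WT, and in that panel only Ndufs3 lies above 0.

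Among the 6 core subunits 0 passed, and their median change was -0.26 in Dil against WT hearts. At an unadjusted p under 0.05 in the same limma fit, 4 of the 6 were lower. Ndufs1 codes for the large iron-sulphur subunit that takes electrons on from the NADH-binding site. Its ratio of Dil over WT was -0.44 in set 1, -0.41 in set 3 and -1.10 in set 4. All 3 direct arrays thus lay below 0, with set 4 the lowest. The fitted change of Ndufs1 was -0.44 ± 0.16 (SE, adjusted p = 0.201 in limma), the largest in this class, and within set 2, which has no direct array, it was 0.105.

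Ndufs7 and Ndufs8 carry iron-sulphur clusters close to the site where ubiquinone is reduced. Ndufs7 changed by -0.36 ± 0.10 (adjusted p = 0.0975 in limma) and Ndufs8 by -0.25 ± 0.08 (adjusted p = 0.135), and both lay below 0 in all 4 sets without passing the test. Ndufv1, the subunit that binds NADH and its flavin cofactor, was at -0.27 ± 0.12, and its partner Ndufv2, which holds an iron-sulphur cluster, was at -0.15 ± 0.07. Ndufs3, a core subunit of the module that binds ubiquinone, stood apart from the others. Its Dil over WT ratio was 0.065 in set 1, -0.42 in set 3 and 0.77 in set 4, so the direct arrays disagreed in sign. The fitted change of Ndufs3 was 0.13 ± 0.11 (adjusted p = 0.638 in limma), and with set 4 left out all 27 genes lay below 0.

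All 16 accessory subunits had fitted changes below 0 in Dil against WT hearts, with a median of -0.38, and 15 of them were lower at an unadjusted p under 0.05. By that rule 21 of the 27 genes were lower, against 8.15% of all features. Across the sets, 14 of the 16 were below 0 in all 4 sets. By position in the enzyme, 3 of 11 matrix arm subunits, core ones included, fell (median -0.36) and 4 of 11 membrane arm subunits fell (median -0.35). Neither arm nor class was tested against the other.

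Ndufa13, a membrane arm subunit also known as GRIM-19, had the largest change of all 27. Its ratios of Dil over WT were -0.072 in set 1, -0.11 in set 3 and -1.23 in set 4. The first 2 of these arrays, with Dil in Cy5, lay near 0, and the array with Dil in Cy3 lay far below it. With the dye term in the fit, Ndufa13 fell by 0.57 ± 0.09 (1.49-fold lower, adjusted p = 0.0133 in limma). Combined over the arrays of each set, its values were -0.45, -0.65, -0.50 and -0.74 in sets 1 to 4. Of these only the value of set 1 depends on the dye term, since the dye cancels in the others. Its own dye term was 0.40 ± 0.05 (Cy5 over Cy3, adjusted p = 0.000853).

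Ndufb11, a small membrane arm subunit encoded on the X chromosome, had Dil over WT ratios of -0.17, -0.32 and -0.96 in sets 1, 3 and 4. All 3 lay below 0. Ndufb11 fell by 0.51 ± 0.11 (1.43-fold lower, adjusted p = 0.0470 in limma), and the sets were close to each other, from -0.67 to -0.44. Ndufb10, a membrane arm subunit held by disulphide bonds at the intermembrane side, had ratios of -0.24, -0.38 and -0.89. It fell by 0.48 ± 0.11 (1.40-fold lower, adjusted p = 0.0492), but its sets spread more widely, from -0.93 in set 4 to -0.20 in set 1.

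Ndufb7 lies at the intermembrane face of the membrane arm and was read by 2 spots. It had Dil over WT ratios of -0.17, -0.23 and -0.40 in sets 1, 3 and 4. All 3 were below 0 and close together, and Ndufb7 fell by 0.35 ± 0.07 (1.27-fold lower, adjusted p = 0.0297 in limma). Its dye term was 0.062 ± 0.037 (adjusted p = 0.312). Of the 7 genes that fell, Ndufb7, Ndufb10 and Ndufs4 had no dye term past the threshold.

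Ndufv3, a small subunit at the tip of the matrix arm with tissue-dependent isoforms, had Dil over WT ratios of 0.057, -0.060 and -0.997 in sets 1, 3 and 4. Only the array of set 4, with Dil in Cy3, was clearly below 0. In the fit Ndufv3 fell by 0.51 ± 0.10 (1.43-fold lower, adjusted p = 0.0302 in limma) with a dye term of 0.25 ± 0.05 (adjusted p = 0.0258). Ndufa12, a matrix arm subunit related to an assembly factor of the same complex, showed the same layout, with ratios of 0.048, 0.11 and -0.85. It fell by 0.39 ± 0.09 (1.31-fold lower, adjusted p = 0.0486), with a dye term of 0.32 ± 0.05 (adjusted p = 0.00443). Ndufa12 and Ndufv3 were the 2 of the 7 that did not lie below 0 on all 3 direct arrays. Over the 27 genes 17 did, against 14.3% of all features.

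Ndufs4 is a matrix arm subunit whose loss in mice causes a fatal encephalopathy used as a model of Leigh syndrome. Its Dil over WT ratios were -0.13, -0.40 and -0.70 in sets 1, 3 and 4, all below 0. Ndufs4 fell by 0.38 ± 0.08 (1.30-fold lower, adjusted p = 0.0416 in limma), and its values over sets 1 to 4 ran from -0.66 to -0.18. This value is the mean of 3 spots that disagreed: tested singly they were at -0.54 ± 0.14 (adjusted p = 0.0825), -0.57 ± 0.10 (adjusted p = 0.0230) and -0.0068 ± 0.0937 (adjusted p = 0.984). Which transcripts the third spot reads was not tested. The 2 spots of Ndufb7 lay at -0.30 ± 0.09 (adjusted p = 0.115) and -0.40 ± 0.08 (adjusted p = 0.0419), and those of Ndufb5 at -0.42 ± 0.13 and -0.25 ± 0.08, so spots of these genes shared their sign.

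**Figure D2:**
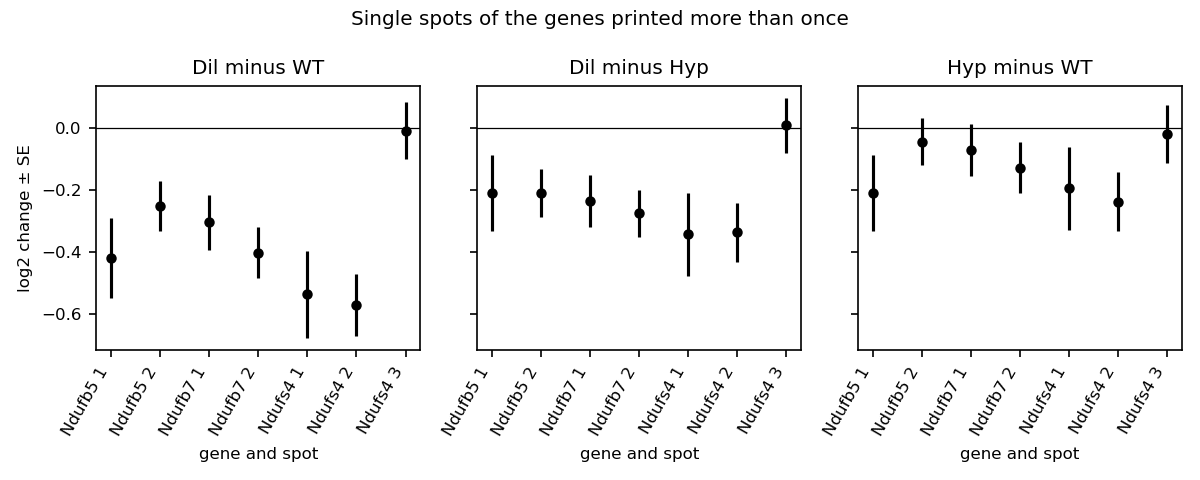
Fitted log2 change with its standard error for each single spot of Ndufb5, Ndufb7 and Ndufs4, the 3 genes printed more than once, in each comparison. In Dil minus WT the third Ndufs4 spot lies at -0.0068 while the other 2 lie at -0.54 and -0.57.

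Of the other accessory subunits, 9 did not pass the test in Dil against WT hearts. Ndufa8, which faces the intermembrane space, was at -0.48 ± 0.15, and Ndufs6, a zinc-binding subunit of the matrix arm, was at -0.47 ± 0.11 (adjusted p = 0.0659 in limma). Ndufa10, a membrane arm subunit related to nucleoside kinases, was at -0.40 ± 0.14. The membrane arm subunits Ndufc2, Ndufb5, Ndufb9, Ndufc1 and Ndufb6 lay between -0.34 and -0.29, each below 0 in all 4 sets. The smallest change in the class belonged to Ndufa7, a matrix arm subunit, whose Dil over WT ratios were -0.35, 0.10 and -0.059 in sets 1, 3 and 4. With ratios on both sides of 0, its fitted change was -0.075 ± 0.086 (adjusted p = 0.731).

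Among the 4 assembly factors 0 passed in limma (1 at an unadjusted p under 0.05), with a median of -0.26. Ndufaf4, which works with Ndufaf3 early in assembly of the matrix arm, had the largest change. Its ratios of Dil over WT were -0.24, -0.44 and -0.79 in sets 1, 3 and 4, all below 0, while within set 2 its value was 0.23. The fitted change of Ndufaf4 was -0.31 ± 0.13 (adjusted p = 0.273). Ndufaf3 was at -0.26 ± 0.12 and Ndufaf1, a factor for assembly of the membrane arm, at -0.26 ± 0.12. Ndufaf6 had ratios of 0.14, 0.20 and -0.34, with only the Cy3 array below 0, and a fitted change of -0.057 ± 0.073 (adjusted p = 0.764).

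The pseudogene Ndufs5-ps, annotated through an expressed sequence tag, was at -0.37 ± 0.11 (adjusted p = 0.114 in limma) and below 0 in all 4 sets. Whether its spot reads the pseudogene or a related transcript was not tested.

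The sets differed in the size of these values, which were not scaled for the spread of each array. Over all spots except controls, the scaled median absolute deviation was 0.172, 0.335 and 0.354 on the Dil and WT arrays of sets 1, 3 and 4. It was 0.152 and 0.169 on the arrays of set 2. The median of the 27 genes in Dil minus WT was -0.21, -0.36, -0.34 and -0.52 in sets 1 to 4, against 0.0024, -0.0070, 0.0033 and 0.0049 for all features, and 21 of the 27 genes lay below 0 in all 4 sets, against 11.9% of all features. For the accessory subunits the set medians were -0.21, -0.48, -0.33 and -0.58, and for the core subunits -0.17, -0.073, -0.37 and -0.17.

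**Figure D3:**
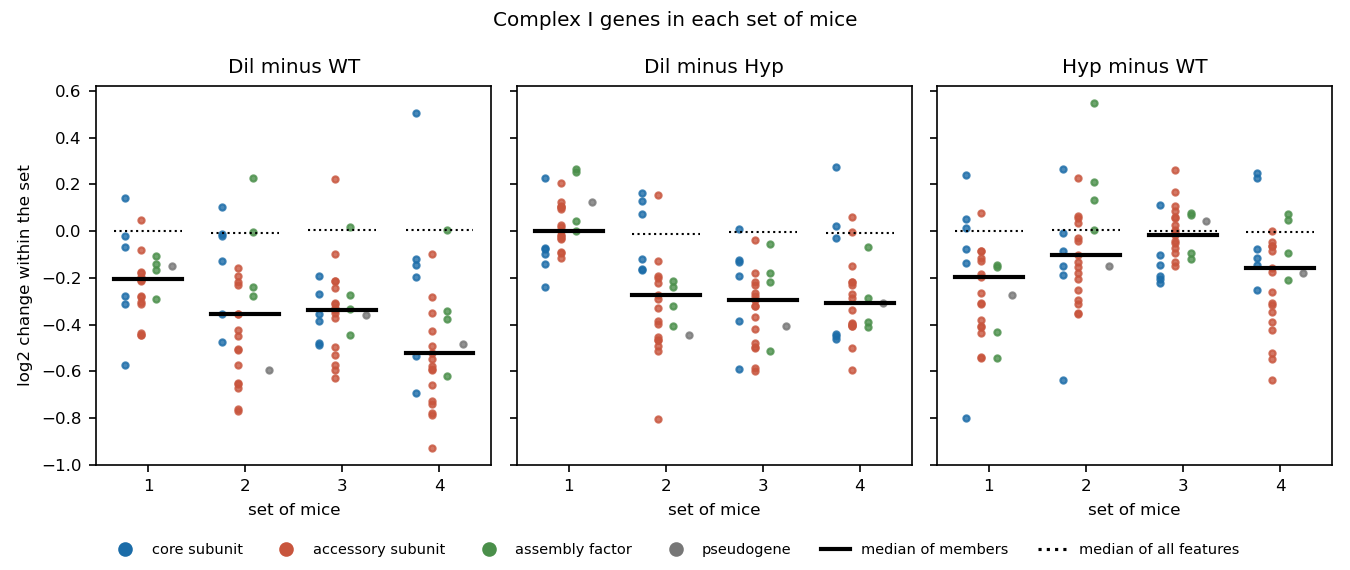
Log2 change of each of the 27 complex I genes within each set of mice, adjusted for dye, with one point per gene coloured by class and a solid bar at the median of the members. The members' medians in Dil minus WT lie between -0.52 and -0.21, and in Dil minus Hyp the median of set 1 lies at 0.002.

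Dye moved with these values and is given here for the whole list. On the arrays as measured, the median ratio of Dil over WT was -0.082 in set 1 and -0.21 in set 3, where Dil was in Cy5, and -0.74 in set 4, where Dil was in Cy3. On these direct arrays 1 has the opposite orientation, so dye and mice are tied there and were separated through the other arrays. When the arrays of a set are combined, the dye cancels for Dil minus WT in sets 2, 3 and 4. The set medians of the 27 genes there were -0.36, -0.34 and -0.52. Only in set 1, with a median of -0.21, does the set value depend on the dye term. The dye term passed the threshold for 10 of the 27 genes, 9 above 0 (Cy5 over Cy3) and Ndufs8 below 0, against 4.58% of all features. Among the 7 genes that fell, it passed for Ndufa13, Ndufb11, Ndufv3 and Ndufa12. Within a set, the 3 arrays can be added so that the mice cancel and only the dye remains: the median over the genes was then 0.124 in set 1 (19 genes), 0.113 in set 3 and 0.174 in set 4, against 0.009, -0.005 and -0.011 over all features. Across the 27 genes, which share arrays and mice, the dye term and the Dil minus WT change had r = -0.48 as a description, against -0.084 over all features. Without a dye term 3 genes fell, namely Ndufb10, Ndufb7 and Ndufs4, and the median of the 27 was -0.32.

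**Figure D4:**
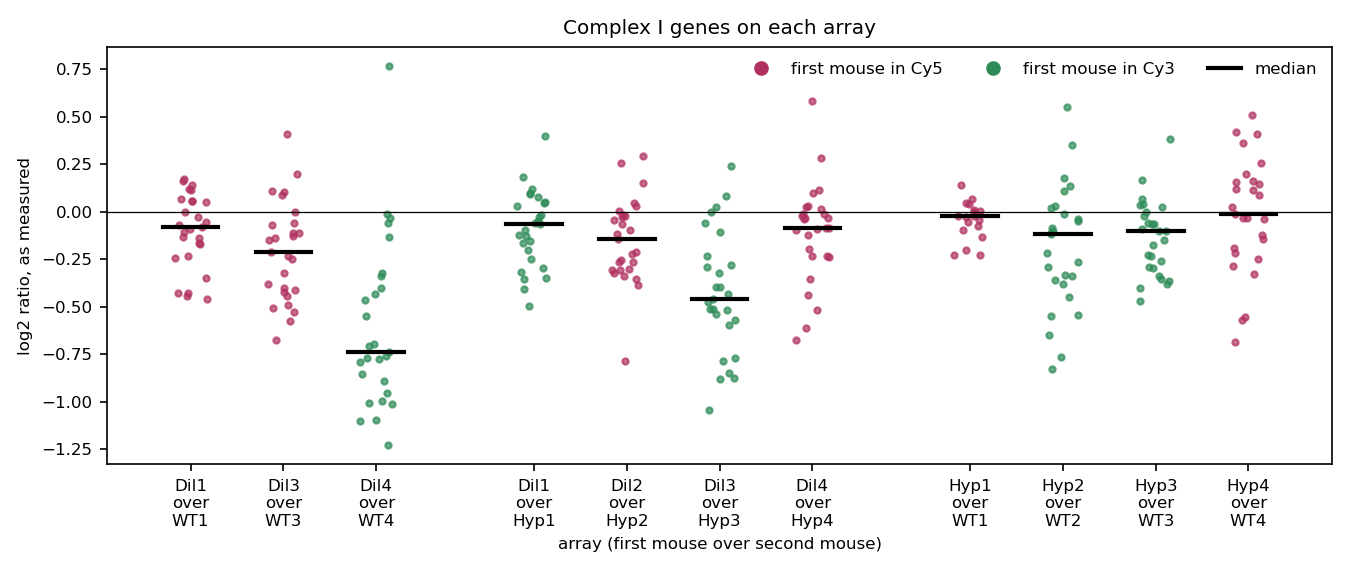
Log2 ratio of each complex I gene on each of the 11 arrays as measured, without adjustment for dye, the first-named mouse over the second, with the median as a bar. Points are coloured by the dye of the first mouse: the lowest median, -0.74, is that of Dil4 over WT4 with Dil in Cy3.

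The promoters of the complex I genes, whether or not they passed the test, were searched for the letters of 4 motifs known from promoters of nuclear genes of respiration: CCGGAAG of the ETS family, which includes GABP, GCGC and TGCGC with any 1 base between them of NRF1, AAGGTCA of the ERR family and AAGATGG of YY1. Both strands were read in windows from 250 bases before to 50 bases after each gene's start (RefSeq, GRCm38.p6). Windows were held for 23 of the 27 genes, with 24 windows in all. They were 300 bases long like the 32851 windows of all genes. ETS letters stood in 5 of the 24 (20.8%, against 8.9% of all windows), in Ndufaf1, Ndufb6, Ndufb7, Ndufs3 and Ndufs8. YY1 letters stood in 4 (16.7%, against 6.3%), in Ndufc1, Ndufs4, Ndufs6 and Ndufs7, and NRF1 letters in 3 (12.5%, against 4.6%), in Ndufa8, Ndufaf4 and Ndufs6. The ERR letters stood in 0 of the 24, against 4.7% of all windows.

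Of the 7 genes that fell, 2 had any of these motifs in the window, Ndufb7 and Ndufs4. Among all 24 windows 11 did (45.8%, against 22.0% of all windows). Shown here are the windows of Ndufa13, with the largest change and no match (chr8:69901971-69902270, minus strand), Ndufb7, with an ETS match (chr8:83566508-83566807, plus strand), Ndufs4, with a YY1 match (chr13:114388045-114388344, minus strand), and Ndufs3, the only gene above 0, with 2 ETS matches (chr2:90904672-90904971, minus strand). Each runs 5′ to 3′ along its gene, and capitals mark the motif letters on either strand.
Ndufa13: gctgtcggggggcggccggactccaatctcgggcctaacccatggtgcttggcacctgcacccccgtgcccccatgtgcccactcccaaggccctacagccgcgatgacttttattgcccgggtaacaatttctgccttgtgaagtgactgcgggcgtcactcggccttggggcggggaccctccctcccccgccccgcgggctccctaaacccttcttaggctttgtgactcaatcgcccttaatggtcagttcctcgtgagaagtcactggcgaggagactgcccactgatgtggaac
Ndufb7: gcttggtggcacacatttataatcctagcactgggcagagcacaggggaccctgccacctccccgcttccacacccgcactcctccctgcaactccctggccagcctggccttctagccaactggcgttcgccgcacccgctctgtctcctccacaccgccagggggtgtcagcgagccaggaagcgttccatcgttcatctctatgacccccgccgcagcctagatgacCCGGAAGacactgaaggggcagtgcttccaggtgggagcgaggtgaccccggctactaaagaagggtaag
Ndufs4: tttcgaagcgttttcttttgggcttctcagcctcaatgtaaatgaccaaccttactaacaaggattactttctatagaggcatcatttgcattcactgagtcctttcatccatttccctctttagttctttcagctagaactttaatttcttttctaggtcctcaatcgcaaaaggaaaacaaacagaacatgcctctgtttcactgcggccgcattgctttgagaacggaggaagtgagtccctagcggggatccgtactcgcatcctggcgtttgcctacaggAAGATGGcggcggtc
Ndufs3: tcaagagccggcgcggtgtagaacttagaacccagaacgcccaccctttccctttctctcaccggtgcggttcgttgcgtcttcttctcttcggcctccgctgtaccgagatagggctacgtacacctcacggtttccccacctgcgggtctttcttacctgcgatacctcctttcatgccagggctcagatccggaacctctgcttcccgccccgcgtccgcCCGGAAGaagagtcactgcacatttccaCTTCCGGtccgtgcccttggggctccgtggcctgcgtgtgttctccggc
A match describes letters in a window, no binding was measured, and no relation of matches to changes was tested.

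Dil and Hyp hearts, which carry the same transgene, were compared to ask what sets dilatation apart from concentric hypertrophy. Of the 27 genes 0 passed in limma, against 0.165% of all features in either direction and 0.0248% as lower, while 15 were lower and 0 higher at an unadjusted p under 0.05 (4.37% of all features were lower by that rule). The fitted change was below 0 for 26 of the 27, against 51.6% of all features, with a median of -0.24 (-0.0037 over all features). The replicate block in limma also gave 0, with 12 genes at an unadjusted p under 0.05. The medians by class were -0.14 for core subunits, -0.25 for accessory subunits and -0.17 for assembly factors.

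Ndufb7 had the smallest adjusted p (0.158 in limma), with a change of -0.26 ± 0.06. Its ratios of Dil over Hyp were -0.13, -0.39, -0.40 and -0.23 in sets 1 to 4, below 0 on every array. The largest change was that of Ndufb11 (-0.39 ± 0.10, adjusted p = 0.216), with ratios of -0.17, -0.22, -0.85 and -0.093. Ndufa13 was at -0.32 ± 0.08 (adjusted p = 0.182), with ratios of -0.41, 0.001, -0.88 and 0.097. The 2 lowest of these are arrays with Dil in Cy3 and the other 2 have Dil in Cy5. Ndufv3 had ratios of -0.35, -0.21, -0.57 and -0.015, and Ndufa12 had -0.30, -0.15, -0.79 and 0.11, again with the Cy3 arrays of sets 1 and 3 lowest.

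Ndufs4 and Ndufb10 were also below 0 on all 4 arrays of Dil over Hyp. Ndufs4 had ratios of -0.028, -0.12, -0.29 and -0.36 (fitted -0.22 ± 0.08), and Ndufb10 had -0.067, -0.34, -0.11 and -0.44 (fitted -0.24 ± 0.10). Over all 27 genes 7 lay below 0 on every Dil over Hyp array, against 6.51% of all features. Ndufs3 was again the exception, at 0.089 ± 0.106, with ratios of -0.018, -0.047, 0.24 and 0.015. Ndufs1 stood at -0.26 ± 0.15, with ratios of 0.093, -0.028, -0.46 and -0.032, so only set 3 was clearly below 0.

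The assembly factors differed among themselves. Ndufaf4 was at -0.35 ± 0.13, with ratios of 0.096, -0.32, -0.52 and -0.24 in sets 1 to 4, 3 of them below 0. Ndufaf6 had ratios of -0.20, -0.018, -0.23 and 0.28 and a fitted change of -0.068 ± 0.069. Ndufa7, the accessory subunit with the smallest change against WT, had ratios of 0.049, -0.31, 0.084 and 0.022 and a fitted change of -0.049 ± 0.082.

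Set 1 differed from the other sets in this comparison after adjustment for dye. The dye-adjusted median of the 27 genes in Dil minus Hyp was 0.002 in set 1 and -0.27, -0.29 and -0.31 in sets 2 to 4. As measured on the direct arrays alone, the medians of Dil over Hyp were -0.067, -0.15, -0.46 and -0.085 in sets 1 to 4. On those arrays set 1 thus lay close to set 4, and set 3 was lowest. The values of sets 3 and 4 given first combine all arrays of the set, in which the dye cancels. Adjustment for dye changed only sets 1 and 2 in this comparison, so the direct arrays and the set values differ by more than dye. Dil was in Cy3 in sets 1 and 3. With set 1 left out the median was -0.33 and 19 genes reached an unadjusted p under 0.05, and 0 passed after adjustment (smallest adjusted p = 0.0698 in limma). Below 0 in all 4 sets were 7 of the 27 genes, against 8.12% of all features: Ndufs7, Ndufs8, Ndufa13, Ndufa8, Ndufb7, Ndufb10 and Ndufv3.

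Hyp and WT hearts were compared to ask which genes accompany concentric hypertrophy. In limma 0 of the 27 genes passed, as did 0.0% of all features. At an unadjusted p under 0.05, 3 genes were lower (1.98% of all features were) and 0 were higher, and the replicate block likewise gave 0 past adjustment and 3 at an unadjusted p. The fitted change was below 0 for 24 of the 27, against 49.5% of all features, with a median of -0.13 (0.0008 over all features). Set medians were -0.20, -0.10, -0.015 and -0.16, so set 3 lay close to 0. Below 0 in all 4 sets were 7 of the 27 genes (5.99% of all features), and below 0 on all 4 Hyp over WT arrays were 6 of the 19 genes measured on each of them (8.21% of all features measured on each).

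The 3 genes were Ndufv3 (-0.28 ± 0.09), Ndufa13 (-0.25 ± 0.08) and Ndufb10 (-0.24 ± 0.11), all of which fell in Dil against WT hearts. The adjusted p was 0.977 for Ndufv3 and Ndufa13 and 0.999 for Ndufb10. Ndufv3 had ratios of Hyp over WT of -0.097, -0.55, -0.36 and -0.33 in sets 1 to 4, below 0 on every array. Ndufa13 had 0.009, -0.65, -0.38 and 0.15, with the arrays that had Hyp in Cy3 below 0 and those with Hyp in Cy5 above it. Ndufb10 had no value on the array of set 1, and its ratios were -0.084, -0.062 and -0.55 in sets 2 to 4, so set 4 was the lowest.

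For the other genes that fell in Dil against WT hearts, the change in Hyp against WT hearts was smaller than 2 standard errors, except for Ndufs4. Ndufs4 was at -0.16 ± 0.08, with ratios of Hyp over WT of -0.23, -0.11, -0.021 and -0.22, all below 0. Ndufa12 was at -0.14 ± 0.08, with ratios of 0.002, -0.36, -0.35 and 0.026, and here too the Cy3 arrays were the low ones. Ndufb11 was at -0.12 ± 0.11, with ratios of -0.45, -0.23 and 0.36 in sets 2 to 4. Ndufb7 was at -0.086 ± 0.062, with ratios of -0.025, -0.27, -0.15 and -0.014, none above 0.

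The 6 genes below 0 on all 4 arrays of Hyp over WT were Ndufv3, Ndufs4, Ndufb7, Ndufv1, Ndufv2 and Ndufa10. Ndufv1 had ratios of -0.078, -0.77, -0.30 and -0.25 in sets 1 to 4. In contrast Ndufs3, Ndufaf6, Ndufa7, Ndufaf4 and Ndufs1 had ratios on both sides of 0. Ndufs3 had ratios of Hyp over WT between -0.035 and 0.027 in the 4 sets and a fitted change of 0.038 ± 0.105. Ndufaf6 was at 0.011 ± 0.069, with ratios of 0.046, -0.22, -0.10 and 0.42. Ndufa7 was at -0.026 ± 0.082, with ratios of -0.20, -0.048, 0.38 and -0.19. Ndufaf4 was at 0.032 ± 0.127, with 0.55 in set 2 and ratios from -0.054 to 0.066 in the others. Ndufs1 was at -0.18 ± 0.16, with ratios of 0.13, -0.18 and 0.16 in sets 2 to 4 and no value in set 1. Both carrier groups are compared with the same WT mice, so their values against WT are not independent, and the difference between the carrier groups is the Dil minus Hyp test above.

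Other genes of the respiratory chain also lay mostly below 0 in Dil against WT hearts. Of 46 listed subunits of complexes II to V, 34 were measured, 5 fell and 0 rose, 33 lay below 0, and the median was -0.31. Over all features 1.15% passed as lower and 48.9% lay below 0. With the replicate block 0 of the 34 passed in limma (smallest adjusted p = 0.106), with 21 at an unadjusted p under 0.05. Those that fell were the cytochrome c oxidase subunits Cox6c (-0.63 ± 0.15, adjusted p = 0.0499 in limma), Cox6b2 (-0.53 ± 0.10, adjusted p = 0.0311), Cox7c (-0.50 ± 0.09, adjusted p = 0.0206) and Cox4i1 (-0.39 ± 0.08, adjusted p = 0.0416), and the ATP synthase subunit Atp5e (-0.46 ± 0.10, adjusted p = 0.0435). Set medians of this list were -0.15, -0.22, -0.29 and -0.52 in sets 1 to 4, with set 1 nearest to 0 and set 4 lowest, as for complex I. These too were not scaled for array spread, which was widest on the array of Dil4 and WT4. In Dil against Hyp hearts 0 of the 34 passed in limma, with 17 lower at an unadjusted p under 0.05 and a median of -0.20, and in Hyp against WT hearts 0 passed, with 2 lower and a median of -0.11.

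Assembly factors of complex I without an Nduf symbol were 10 measured of 15 listed. In Dil against WT hearts 0 passed in limma (2 lower and 1 higher at an unadjusted p under 0.05), 9 of the 10 lay below 0, and the median was -0.18. Tmem126b, which acts with Ndufaf1, was lowest at -0.24 ± 0.07 (adjusted p = 0.0884), and Chchd4, an import factor of the intermembrane space, was highest at 0.21 ± 0.07 (adjusted p = 0.182). Of the 7 subunits encoded by mitochondrial DNA, 0 were measured here. The list of general mitochondrial genes (outer membrane pores, import channels, chaperones and carriers), with 19 of 21 measured, had a median of -0.057 with 16 of the 19 below 0, and 0 passed (2 lower and 1 higher at an unadjusted p under 0.05). Regulators of mitochondrial biogenesis, with 10 of 13 measured, had a median of -0.0002 with 5 of the 10 below 0. Of these regulators 0 passed (2 lower at an unadjusted p under 0.05, Ppargc1b and Tfb1m). Among the regulators the coactivator genes Ppargc1a and Ppargc1b were at -0.21 ± 0.17 and -0.42 ± 0.17, and Tfb1m was at -0.21 ± 0.08. Above 0 lay Esrra at 0.20 ± 0.31, Tfb2m at 0.11 ± 0.19, Gabpb1 at 0.051 ± 0.155, Nrf1 at 0.050 ± 0.049 and Yy1 at 0.089 ± 0.087.

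Markers of cell types in the heart were set beside these values. Of 16 cardiomyocyte markers 5 were measured, 0 passed in Dil against WT hearts in limma (3 lower and 1 higher at an unadjusted p under 0.05), and the median was -0.22. Among them Actn2 was at 0.46 ± 0.18 and Atp2a2 at -0.47 ± 0.16, so markers of this cell type did not move one way. The fibroblast list, with 13 of 14 measured, had a median of 0.41, and Fbln2, a matrix glycoprotein gene, rose by 1.00 ± 0.23 (adjusted p = 0.0486 in limma). No other gene of that list passed. At an unadjusted p under 0.05 in limma, 5 of the 13 were higher (Fbln2, Fn1, Sparc, Col3a1 and Col1a2) and 0 lower. Of the 13, 2 lay below 0, Pdgfra at -0.20 ± 0.10 and Lum at -0.053 ± 0.129. Tcf21 at 0.038 ± 0.064 and Ddr2 at 0.029 ± 0.070 lay near 0, so this list did not move one way either. Over all features 1.0% passed as higher, and 8.09% were higher at an unadjusted p. With the replicate block 0 of the 13 passed (smallest adjusted p = 0.196), with 5 at an unadjusted p under 0.05. The list's set medians were -0.097, 0.041, 0.54 and 0.95 in sets 1 to 4, with set 4 highest where the complex I median was lowest. Array spread, for which no set value was scaled, was widest on the Dil and WT array of set 4. Medians of the other lists were -0.055 for endothelial (7 measured), -0.42 for smooth muscle (3), 0.20 for macrophage and leukocyte (2), -0.14 for adipocyte (4) and 0.35 for erythrocyte markers (1), and 0 of these genes passed at an adjusted p under 0.05 in limma, with 4 lower and 1 higher at an unadjusted p. Ratios give no levels of these markers in a group, and their part in the complex I values was not tested.

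**Figure D5:**
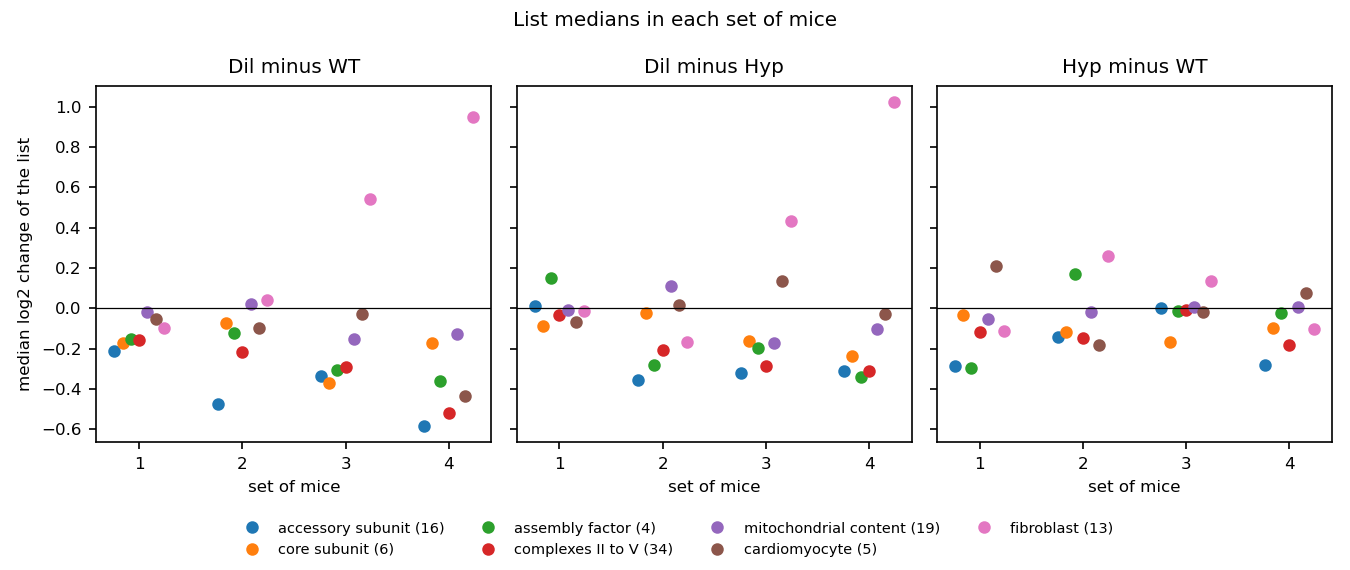
Median log2 change of each gene list within each set of mice, not scaled for array spread, with the number of measured genes in the legend. In Dil minus WT the fibroblast median is 0.95 in set 4, where the medians of accessory subunits and of complexes II to V are -0.58 and -0.52.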

How the data were processed

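The deposited table holds log2 ratios of the 2 dyes, 1 value per spot and array, in the submitters' series matrix; of the scanner, background correction, normalization and logarithm base nothing is given in the sources used here, and base 2 was assumed. Per the labels' protocols, each labelling reaction took 25 µg of RNA and built in Cy3 or Cy5 during reverse transcription. Column medians ran from -0.0114 to 0.0068. Spot brightness was not used, so the number of arrays limits precision.

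The column of Hyp1 and WT1 was realigned: 40 of 46 groups of 12 positions per block were moved by 8 blocks. The correlation with the ratio implied by the Dil1 arrays then rose from 0.459 to 0.781. Each group's place was chosen by its correlation with that same ratio, so the rise is not an independent check. Spots with 1 gene symbol were averaged per gene, 736 control spots were left out, and features needed values on at least 9 of 11 arrays. Ratios were fitted by generalised least squares with terms for group and dye and mice as random effects (variance ratio 0.303), moderated with limma 3.58.1 in R 4.3.3 (8 residual degrees of freedom, counting arrays), and adjusted by Benjamini-Hochberg over 12097 features at 0.05. The fit was also run on ratios simulated from its own model, with 200 of 12097 features changed in Dil. There 183 features passed in Dil minus WT, 9 of them unchanged. Each feature had the same residual spread on every simulated array, while the measured arrays differed in spread (0.115 to 0.354). The run could therefore not show what that difference does to the counts. Set values are least-squares values within a set, adjusted for dye. The members and all gene lists were chosen with earlier results of these data known. By rule, every member is named, with array values for members past the threshold and for the largest and smallest Dil minus WT change of each class. Since mice of a number meet on the same arrays, a correlation of same-numbered mice could not be computed, and the replicate block is given beside the counts. Alternatives covered the realignment, dye term, random effects, pairing, array spread, filter, spots, direct arrays, centring and each set left out.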

Additional observations from a re-analysis of the deposited data

Results flagged for a closer look

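Over the 4 sets, the gap of the highest or lowest set to its nearest neighbour was set against the range for each of the 27 genes and for their median in the 3 comparisons. Of these 84 groups of 4 values, 6 exceeded Dixon's critical value for 4 values, and chance flags about 1 in 20 such groups.

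In Dil minus Hyp hearts, set 1 stood above the other sets in 3 cases, all in set values, of which adjustment for dye changes sets 1 and 2. The median of the 27 genes was 0.002 in set 1 and -0.275, -0.293 and -0.307 in sets 2 to 4. As measured on the direct arrays alone, it was -0.067 in set 1 and -0.147, -0.458 and -0.085 in sets 2 to 4. The set values of sets 3 and 4 differ from these because they combine all arrays of the set, in which the dye cancels. Ndufb11 was at 0.106 in set 1 and at -0.493, -0.599 and -0.501 in sets 2 to 4. Ndufaf1 was at 0.255 in set 1 and at -0.215, -0.216 and -0.287 in sets 2 to 4. Neither gene had a value on the array of Hyp1 and WT1, so these set 1 values rest on the Dil1 and Hyp1 array alone. There the ratio of Dil over Hyp as measured was -0.165 for Ndufb11 and 0.396 for Ndufaf1. The dye terms were 0.27 ± 0.06 for Ndufb11 and -0.14 ± 0.06 for Ndufaf1.

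In Hyp minus WT hearts, a different set stood apart for each of 3 genes. Ndufa7 was at 0.26 in set 3, while its other sets lay between -0.156 and -0.129. Ndufb10 was at -0.52 in set 4, with -0.085, -0.130 and -0.133 in sets 1 to 3. Ndufv1 was at -0.639 in set 2, with -0.075 in set 1 and -0.143 in each of sets 3 and 4.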

How the results depend on the processing

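The median change of the 27 complex I genes stayed below 0 in every comparison and under all 15 alternatives run. It ran from -0.41 to -0.29 in Dil minus WT, from -0.33 to -0.17 in Dil minus Hyp and from -0.19 to -0.064 in Hyp minus WT hearts. The count of 7 genes that fell in Dil minus WT depended on the processing. It was 3 with the array of Hyp1 and WT1 left out (Ndufa13, Ndufb7 and Ndufv3), 3 without a dye term (Ndufb10, Ndufb7 and Ndufs4), 1 with arrays scaled to the same spread (Ndufa13), 4 with spots tested singly, 0 from the direct arrays alone and 0 with the replicate block, where 6 features passed in all. The replicate block, added for these lists after seeing the data, likewise gave 0 for complexes II to V, against 5, and 0 for the fibroblast markers, against 1. Leaving out 1 set in turn gave 0 to 3 genes, and the smallest adjusted p with set 2, 3 or 4 left out was 0.0502, 0.230 and 0.153. By construction the replicate block tests only 4 set values. Leaving out an array or a set and taking the direct arrays alone use fewer arrays, and single-spot testing uses 1 spot at a time. Why the count differed was not tested for any alternative. With the column of Hyp1 and WT1 as deposited 7 genes passed, 6 of them shared, with Ndufs6 in place of Ndufa12, and Ndufs6 also passed with set 1 left out. Ndufa13 passed under 9 of its 15 alternatives (adjusted p from 0.00716 to 0.23), and Ndufa12 under 4 of 15 (0.037 to 0.367). In Dil minus Hyp and Hyp minus WT 0 genes passed under all 15. Of the single-gene values under alternatives, 1083 kept their side of the threshold and moved by less than the spread between sets, 31 moved further, 58 lost and 2 gained a call, and 0 called values changed sign. Genes with several spots are left out of that tally under single-spot testing. All tests rest on 4 mice per group.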
